A study of Mus musculus with 20 samples.

Results

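The comparison described here is that of the cerebella of 3 wild-type (WT) mice treated with AAV-shA4 with those of 3 untreated WT mice, 6 of the 20 libraries of the series, chosen by their labels. All 55401 genes of the deposited count table were considered, coding or not, and 17601 had enough reads to be tested. The study asked whether a short hairpin RNA (shRNA) against expanded CAG repeats lowers mutant ataxin-7 in mice with spinocerebellar ataxia type 7 (SCA7), and these 6 libraries addressed whether the shRNA named A4 alters gene expression where no expanded repeat is present. The mice of both groups were C57BL/6J animals without a mutant allele, labelled 9w. The labels give neither the day from which weeks are counted nor the age of the mice. The study's text places the treated WT mice at 9 weeks after the injection. For the late mice it also counts weeks from the injection but gives another number than the labels. Treated mice received the shRNA in an adeno-associated virus with the PHP.eB capsid, given into the retro-orbital sinus, and the vector carries eGFP under a CMV promoter beside the shRNA under an H1 promoter. Untreated mice, labelled NT, received saline. No WT mice with a scrambled shRNA were among the early libraries, so that effects of the capsid, of eGFP, of RNA interference in general and of the A4 sequence cannot be told apart. The late libraries, labelled 25w, hold 5 AAV-shA4-treated SCA7 140Q/5Q knock-in mice (1 mutant allele of ataxin-7 with 140 glutamines and 1 allele with 5). They also hold 5 SCA7 mice that received a vector with the scrambled shRNA (AAV-shSCR) and 4 untreated WT mice, labelled NT like the early ones. Each library holds the RNA of 1 cerebellum.

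Small hairpin RNAs are cut by Dicer and loaded into Argonaute proteins, where the guide strand pairs with complementary transcripts and lowers them. PHP.eB crosses the blood-brain barrier of C57BL/6J mice by binding LY6A on brain endothelium. The cerebellum consists mostly of granule cells, with Purkinje cells as the only output neurons of its cortex, the cerebellar nuclei, Bergmann glia, interneurons, oligodendrocytes and vessels, and its roof borders the fourth ventricle, lined by ependymal cells with motile cilia and by choroid plexus.

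Between 36245752 and 39208298 reads were counted per treated mouse and between 47455917 and 49212593 per untreated mouse, so that the depths of the groups did not overlap. None of the 28 Purkinje cell markers or of the 18 granule cell markers was at 0 in all 6 libraries, and their summed levels were 16460 to 18750 and 9604 to 10770 CPM (read counts scaled to a common library size by edgeR's TMM method). All pairs of libraries differed by a root mean square of 0.203 to 0.266 on the log2 scale over the genes at 1 CPM or more. Pairs of 1 mouse from each group differed by 0.238 to 0.266, and pairs of treated mice by 0.214 to 0.253. Replicates differed by more than counting noise, and no 2 libraries were duplicates.

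AAV-shA4-treated WT mice differed from untreated WT mice in 16 of the 17601 genes (0.0909%), of which 13 were higher (0.0739%) and 3 lower (0.017%). A gene was called at a fold change above 1.3 in either direction and an adjusted p under 0.05 from the quasi-likelihood test of edgeR, adjusted after Benjamini and Hochberg. The adjusted p alone was passed by 21 genes (0.119%), and an unadjusted p under 0.05 by 1818 (10.3%), 891 of them higher (5.06%) and 927 lower (5.27%). The 16 called genes include 4 on a list of motile cilia, the clock gene Per2, a collagen, a serotonin receptor, a mitochondrial mRNA and the acute-phase gene Lcn2. The groups stood apart in 2680 genes (15.2%), with treated mice above in 7.19% and below in 8.03%, and an exact permutation test of 3 against 3 cannot give a p below 0.10. The number of called genes depended on every mouse. It was 7, 1 and 38 without treated mouse 1, 2 or 3, and 9, 4 and 2 without untreated mouse 1, 2 or 3.

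**Figure D1:**
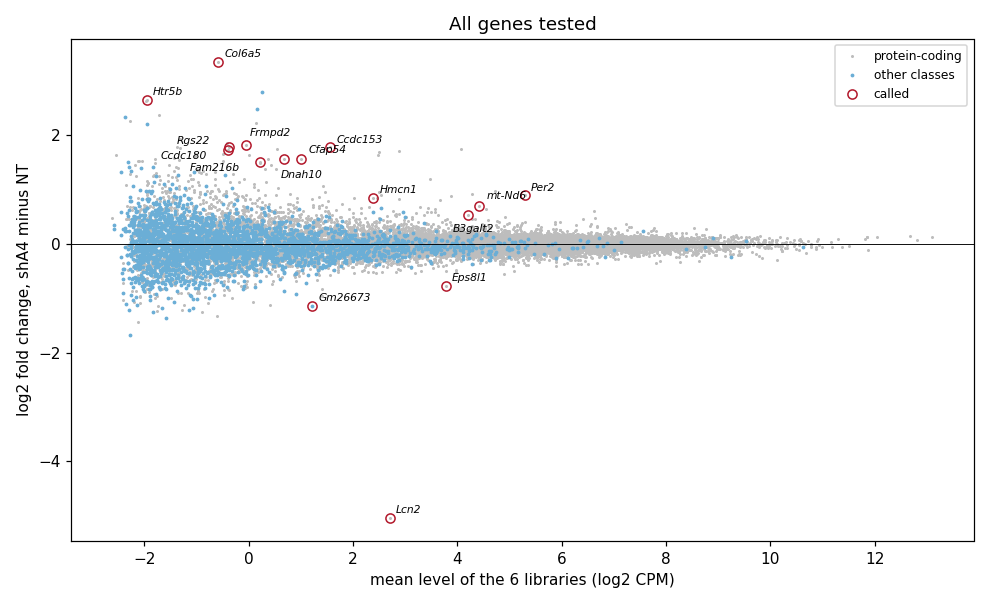
Log2 fold change of AAV-shA4-treated against untreated WT mice (vertical axis) for each of the 17601 genes tested, by mean level of the 6 libraries in log2 CPM (horizontal axis), with protein-coding genes in grey, other classes in blue and the 16 called genes circled. Most points lie close to 0, Lcn2 lies far below and Col6a5 far above.

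Of the 44 gene lists, that of motile cilia and ependyma held the most called genes, all higher in treated mice. Cfap54, a protein of the central apparatus of the axoneme, had 2.67, 2.87 and 3.41 CPM in treated mice and 1.17, 0.883 and 0.988 CPM in untreated mice. On average these were 2.98 ± 0.385 CPM with AAV-shA4 (SD, n = 3) against 1.01 ± 0.144 CPM (SD, n = 3), which gave a log2 fold change of 1.55 (SE 0.19, with an adjusted p of 0.0135 in edgeR). Every treated mouse was above every untreated mouse. Dnah10, a dynein heavy chain of the axoneme, had 2.38, 2.54 and 2.23 CPM against 1.04, 0.673 and 0.706 CPM (log2 fold change 1.56, adjusted p = 0.0255 in edgeR). Ccdc153 had 5.15, 4.95 and 3.60 CPM against 1.63, 0.799 and 1.57 CPM (1.77, adjusted p = 0.0247 in edgeR). In Ccdc180 the values were 1.03, 1.27 and 1.21 CPM against 0.438, 0.337 and 0.282 CPM (1.73, adjusted p = 0.0480 in edgeR), again without overlap. Not on that list, Rgs22, a protein with RGS domains, rose by 1.79 on the log2 scale (1.16 to 1.22 CPM against 0.273 to 0.383 CPM), Frmpd2, a FERM and PDZ domain protein, by 1.82 (1.35 to 1.68 against 0.315 to 0.605 CPM) and Fam216b by 1.505 (1.57 to 1.93 against 0.505 to 0.746 CPM). All 7 genes were below 6 CPM in each mouse, so that few reads stood behind each value.

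Of the 30 motile cilia and ependyma genes on a list that was chosen with earlier results of these data known, all were tested, 4 were called and 23 were higher and 0 lower at an unadjusted p under 0.05 (background 5.06% higher). Their median log2 fold change was 0.80, against −0.00075 over all genes. The dynein heavy chain Dnah3 had 1.16, 1.70 and 1.71 CPM against 0.375, 0.379 and 0.706 CPM, and Tmem212 had 1.95, 1.24 and 2.17 CPM against 0.709, 0.589 and 0.766 CPM, both without overlap and with an adjusted p of 0.0761 and 0.0855 in edgeR. The 16 markers of choroid plexus, whose cells are also ciliated, summed to 1555, 2694 and 1066 CPM in treated mice and 1425, 2041 and 2861 CPM in untreated ones, with a median log2 fold change of −0.19 and none of them at an unadjusted p under 0.05. In bulk tissue, more ependymal cells in the dissected piece and more of each RNA per cell cannot be told apart.

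The start regions of the called genes were examined because several of them are cilia genes that rose together. In vertebrates, RFX factors bind X-box motifs in promoters of cilia genes, and their core GTTGCC, on either strand, is held by 12.5% of the 32817 start regions of 300 bases in RefSeq (build GRCm38.p6, 250 bases before to 50 after the start). Of the 16 called genes 9 had such a region in the table, and 3 of these 9, the cilia genes Ccdc153, Dnah10 and Ccdc180, held it. The other genes of the cilia list were not examined. The E-box CACGTG was held by 7.15% of all regions and by 2 of the 9, Ccdc180 and B3galt2. The 3 regions with this core and that of Fam216b, which holds none, are shown from 5′ to 3′ with the core in capitals. They lie on the plus strand at chr9:44240427-44240726 (Ccdc153), chr5:124724835-124725134 (Dnah10) and chr4:45890053-45890352 (Ccdc180), and on the minus strand at chr14:78088958-78089257 (Fam216b).
Ccdc153: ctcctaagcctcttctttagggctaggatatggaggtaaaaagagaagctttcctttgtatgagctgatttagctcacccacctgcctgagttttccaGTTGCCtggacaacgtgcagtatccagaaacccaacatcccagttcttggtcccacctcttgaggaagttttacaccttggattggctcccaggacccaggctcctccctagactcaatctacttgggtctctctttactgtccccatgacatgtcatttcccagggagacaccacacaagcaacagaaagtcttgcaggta
Dnah10: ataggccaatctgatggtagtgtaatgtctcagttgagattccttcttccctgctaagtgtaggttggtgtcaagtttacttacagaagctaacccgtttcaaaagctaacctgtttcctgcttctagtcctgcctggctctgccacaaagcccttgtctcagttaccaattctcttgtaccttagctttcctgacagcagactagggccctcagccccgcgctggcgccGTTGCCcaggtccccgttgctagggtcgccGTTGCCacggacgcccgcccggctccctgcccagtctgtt
Ccdc180: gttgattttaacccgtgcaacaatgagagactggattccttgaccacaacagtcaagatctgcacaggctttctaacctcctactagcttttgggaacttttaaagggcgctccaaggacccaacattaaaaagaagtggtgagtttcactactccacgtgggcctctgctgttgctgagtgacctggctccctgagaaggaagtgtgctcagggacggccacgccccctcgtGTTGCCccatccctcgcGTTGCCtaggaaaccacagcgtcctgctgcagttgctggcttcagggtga
Fam216b: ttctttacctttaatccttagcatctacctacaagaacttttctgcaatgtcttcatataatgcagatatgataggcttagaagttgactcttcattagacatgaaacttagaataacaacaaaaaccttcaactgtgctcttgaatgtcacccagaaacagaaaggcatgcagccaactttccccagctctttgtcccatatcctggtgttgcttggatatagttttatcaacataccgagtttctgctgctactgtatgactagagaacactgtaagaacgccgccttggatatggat
The core begins 152 bases before the start of Ccdc153, 20 bases before and 10 bases after that of Dnah10, and 17 bases before and 0 bases from that of Ccdc180. A match describes these letters and not a bound site.

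Per2, a repressor of the circadian loop, had 49.8, 54.5 and 48.2 CPM in treated mice and 27.4, 30.3 and 24.4 CPM in untreated mice. Its log2 fold change was 0.89 (SE 0.080, with an adjusted p of 0.00224 in edgeR), the smallest adjusted p of all genes, with no overlap and with the call kept in all 17 alternative settings. Of the 20 core clock genes, 12 were higher and 2 lower at an unadjusted p under 0.05 (background 5.06% higher and 5.27% lower). Their median log2 fold change was 0.23. Per1 had 102.7, 129.1 and 114.6 CPM against 69.8, 83.2 and 94.7 CPM, and Npas2, which pairs with BMAL1 to activate these repressors, 5.41, 6.29 and 5.78 CPM against 8.19, 8.43 and 8.51 CPM. Neither was called (adjusted p = 0.141 and 0.110 in edgeR), and in both the groups did not overlap.

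A further 3 called genes encode matrix or membrane proteins. Col6a5, a chain of collagen VI, had the largest increase, with 1.03, 1.32 and 1.32 CPM in treated mice and 0.209, 0.0421 and 0.101 CPM in untreated mice. These were 39, 52 and 48 reads against 10, 2 and 5, and the log2 fold change was 3.35 (SE 0.40, with an adjusted p of 0.0135 in edgeR). In the 4 late untreated WT mice Col6a5 ranged from 0.157 to 1.65 CPM, a range that holds the early treated values. Hmcn1, an extracellular hemicentin, had 6.60, 7.79 and 5.86 CPM against 3.54, 4.19 and 3.49 CPM (log2 fold change 0.85, adjusted p = 0.0480 in edgeR). B3galt2, a galactosyltransferase of the Golgi, had 23.1, 22.1 and 19.9 CPM against 16.2, 14.8 and 13.9 CPM (0.54, adjusted p = 0.0480 in edgeR). Its transcript lies within Cdc73 on the opposite strand, and Cdc73 had a log2 fold change of 0.07. In all 3 genes the groups stood apart. Among 43 collagens tested, 3 were higher and 5 lower at an unadjusted p under 0.05 (background 5.06% and 5.27%), with a median of 0.05. Col4a1, a chain of basement membrane collagen IV, had 30.3, 37.8 and 35.0 CPM against 44.8, 48.9 and 42.0 CPM (log2 fold change −0.40, adjusted p = 0.141 in edgeR). 

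Htr5b, a serotonin receptor, had 0.502, 0.406 and 0.440 CPM in treated mice and 0.0834, 0.0841 and 0.0403 CPM in untreated mice, 19, 16 and 16 reads against 4, 4 and 2. The log2 fold change was 2.65 (SE 0.44, with an adjusted p of 0.0480 in edgeR), and the groups did not overlap. Of the 12 serotonin receptor and transporter genes tested, it alone passed an unadjusted p under 0.05, and the median was 0.13.

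The mitochondrial gene mt-Nd6, the only subunit of complex I coded on the light strand, had 29.1, 25.2 and 24.9 CPM against 16.1, 16.3 and 16.5 CPM. Its log2 fold change was 0.69 (SE 0.078, with an adjusted p of 0.0125 in edgeR), with every treated mouse above every untreated one. In the 4 late untreated WT mice its level lay between 26.5 and 35.3 CPM, above each early untreated mouse. The other 6 mitochondrial mRNAs tested lie on the heavy strand, had log2 fold changes of 0.06 to 0.14, and none had an unadjusted p under 0.05. All 3 light-strand genes tested, the tRNA genes mt-Tq and mt-Tp and mt-Nd6 itself, had an unadjusted p under 0.05, against 3 of 13 heavy-strand genes, named after their values were seen. mt-Tq had 0.713, 0.330 and 0.440 CPM against 0.229, 0.273 and 0.181 CPM, so that treated mice were above untreated ones. The counts of both tRNAs are low, and whether the counting used strand is not given in the sources used here.

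Lcn2, the iron-siderophore binding protein lipocalin 2 of the acute-phase response, was lower in treated than in untreated mice. It had 0.264, 0.254 and 0.633 CPM in treated mice and 13.99, 22.2 and 1.75 CPM in untreated mice, 10, 10 and 23 reads against 671, 1054 and 87. The log2 fold change was −5.05 (SE 0.82, with an adjusted p of 0.0480 in edgeR), but the spread lay in the untreated mice, 2 of which were far above the third. The call of Lcn2 was lost in 8 of 17 alternative settings, 5 of them with a mouse left out. In the late libraries Lcn2 was low in all 3 groups, with medians of 0.465 CPM (SCA7 shA4), 0.306 CPM (SCA7 shSCR) and 0.313 CPM (untreated WT). Of the 17 acute-phase and endothelial inflammation genes tested, 2 were higher and 5 lower at an unadjusted p under 0.05 (background 5.06% and 5.27%). Their median log2 fold change was −0.05. Lrg1, an acute-phase glycoprotein, had 0.634, 0.558 and 1.32 CPM against 1.92, 2.38 and 1.19 CPM, so that treated mouse 3 overlapped untreated mouse 3, the one with little Lcn2. The interleukin 1 receptor Il1r1 had 5.76, 6.42 and 6.08 CPM against 8.80, 9.51 and 6.98 CPM, again with untreated mouse 3 nearest the treated mice. Neither gene was called.

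Eps8l1, an actin-regulating adaptor, had 8.503, 9.95 and 12.1 CPM against 17.5, 17.9 and 16.7 CPM (log2 fold change −0.78, adjusted p = 0.0343 in edgeR). Its level ranged widely elsewhere, from 0.687 to 9.60 CPM in the 4 late untreated WT mice and from 3.90 to 22.4 CPM in the 5 late SCA7 mice given AAV-shA4. Gm26673, an antisense long non-coding gene on chromosome 6 from 126718684 to 126741601, was the 1 called gene that is not protein-coding, with 1.16, 1.65 and 1.54 CPM against 3.13, 3.26 and 3.23 CPM (log2 fold change −1.14, adjusted p = 0.0408 in edgeR). Treated mice were below untreated ones in both genes. Gm26673 overlaps the potassium channel gene Kcna6 on the other strand, and Kcna6 had a log2 fold change of 0.07 (unadjusted p = 0.192 in edgeR).

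**Figure D2:**
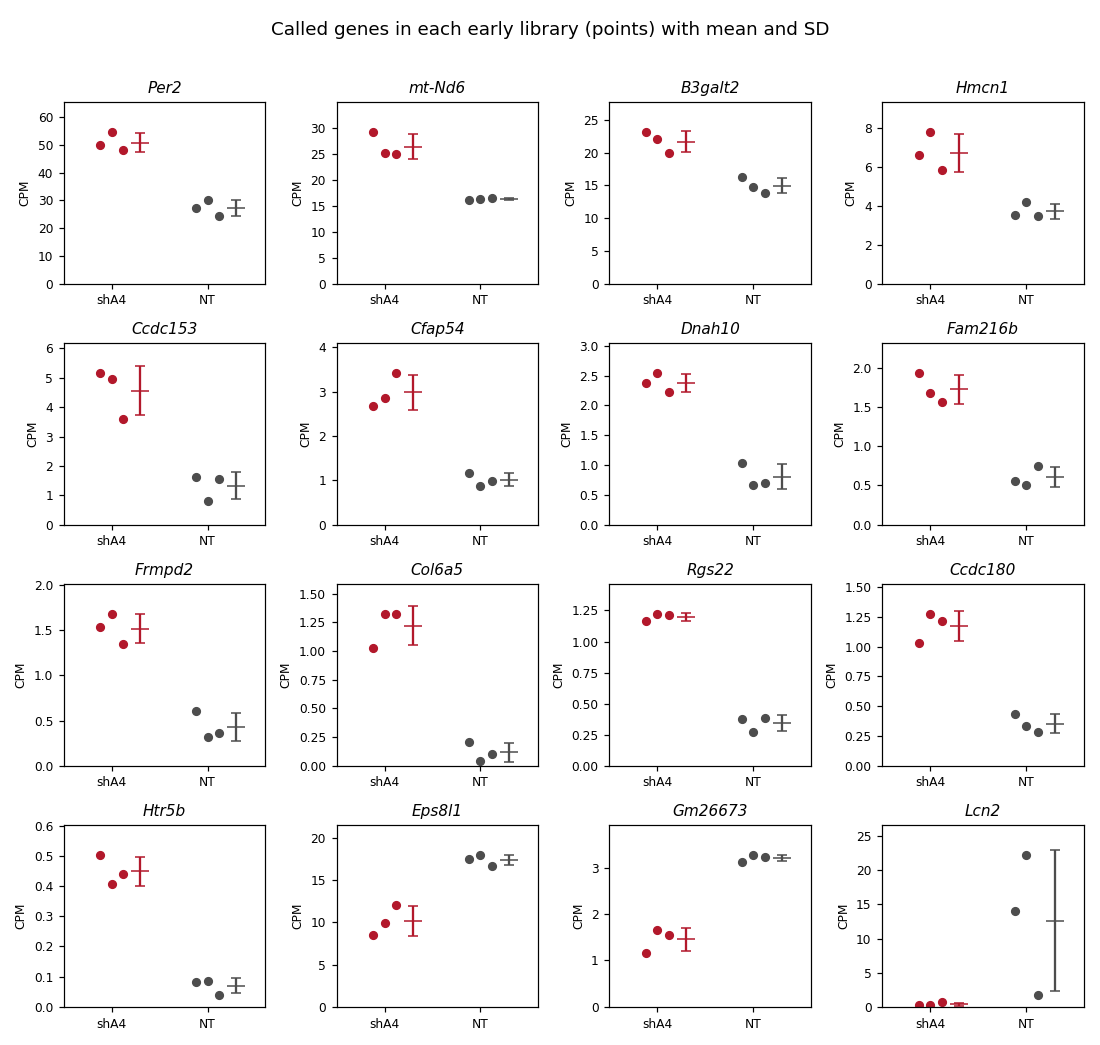
CPM of the 16 called genes in each early library (points), with the group mean and SD beside them (bars), for AAV-shA4-treated (red) and untreated (grey) WT mice on vertical axes that start at 0. In each gene the groups stand apart, and the untreated values of Lcn2 spread from 1.75 to 22.2 CPM.

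Among the 2851 tested genes that are not protein-coding, 5.89% had an unadjusted p under 0.05, against 11.2% of the 14733 protein-coding genes, and 1 was called (0.0351%). Long non-coding genes numbered 2281, of which 55 were higher (2.41%) and 88 lower (3.86%) at an unadjusted p under 0.05. Over all genes these shares were 5.06% and 5.27%. The processed transcript 2010001K21Rik had 1.06, 1.07 and 0.990 CPM in treated mice and 0.417, 0.463 and 0.403 CPM in untreated mice, with a log2 fold change of 1.27 (unadjusted p = 0.000268, adjusted p = 0.105 in edgeR). The antisense genes Gm15478 and 3300002A11Rik had log2 fold changes of 2.34 and 2.21 on at most 23 reads per mouse. Gm47512 and Gm14703, also antisense, had 0.49 and 0.66. Among those lower, Snhg10, a host transcript of small nucleolar RNA, had 0.951, 1.37 and 1.1 CPM against 1.501, 2.40 and 2.32 CPM (log2 fold change −0.86, adjusted p = 0.259 in edgeR). D830035M03Rik, AC161456.1, Gm536 and C78859 had log2 fold changes of −1.18, −1.37, −0.73 and −0.38. These genes were chosen for groups that did not overlap, and none but Gm26673 was called. Antisense and overlapping genes can share reads with the gene on the other strand, which cannot be told apart here.

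Of the protein-coding genes that were not called, the 10 with the smallest unadjusted p among those higher at a fold above 1.3 and without overlap (380 genes higher at this fold and an unadjusted p under 0.05, 2.16%) included Cdhr3, a cadherin of ciliated cells, F2r, the thrombin receptor, and the urea transporter gene Slc14a2. F2r had 10.5, 8.35 and 9.30 CPM against 5.44, 4.21 and 6.19 CPM (log2 fold change 0.83, adjusted p = 0.0688 in edgeR). Slc14a2 had 0.660, 0.558 and 0.688 CPM against 0.188, 0.126 and 0.181 CPM (1.92, adjusted p = 0.0688 in edgeR). The more abundant genes Nhsl1, Itih3, Sorcs2 and Sipa1l2 had log2 fold changes of 0.41 to 0.46. On the lower side (191 genes, 1.09%) were Prr15, with 1.82, 1.68 and 1.87 CPM against 3.19, 3.05 and 4.23 CPM (log2 fold change −0.96, adjusted p = 0.0751 in edgeR), and Adamts18, a matrix protease, with 18.8, 27.7 and 25.9 CPM against 32.3, 38.0 and 35.8 CPM (−0.55, adjusted p = 0.143 in edgeR). Angptl4, an inhibitor of lipoprotein lipase, had −0.67. Of the 23 tested genes of cholesterol synthesis and uptake, 0 were higher and 7 lower at an unadjusted p under 0.05 (median −0.12). The background was 5.06% higher and 5.27% lower.

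Genes of antigen presentation and antibody chains had their highest values in 1 treated animal. Cd74, the invariant chain of MHC class II, had 10.7, 11.4 and 55.8 CPM in treated mice and 5.67, 8.08 and 9.39 CPM in untreated mice, and H2-Aa, a class II chain, had 4.54, 4.72 and 24.7 CPM against 2.67, 4.19 and 3.53 CPM. Treated mouse 3 was far above all other mice, and treated mice 1 and 2 lay only slightly above the untreated mice. H2-Ab1 and H2-Eb1 were also highest in treated mouse 3, with overlap between the other mice in H2-Ab1 and none in H2-Eb1, at log2 fold changes of 1.63 (edgeR adjusted p = 0.336) and 1.70 (edgeR adjusted p = 0.282). Of the 11 tested genes of MHC class II and T cells, 7 were higher and 0 lower at an unadjusted p under 0.05 (background 5.06% and 5.27%). Of these 11 genes, 0 were called. Their median log2 fold change of 1.31 became 0.42 without treated mouse 3. The MHC class I genes had a median of 0.43, which became −0.06 without that mouse. Lck, a kinase of T cells, was too low to be tested, with 17, 9 and 43 reads in treated mice and 7, 7 and 10 in untreated mice. Myo1g, a myosin of lymphocytes, had 0.739, 0.660 and 1.35 CPM against 0.313, 0.379 and 0.403 CPM, without overlap and not called.

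The constant region of immunoglobulin light chain, Igkc, had 0.555, 2.06 and 3.11 CPM against 0.250, 0.231 and 0.524 CPM, and that of the IgA heavy chain, Igha, had 0.317, 1.62 and 4.32 CPM against 0.0834, 0.379 and 0.423 CPM. Treated mice 2 and 3 were high in both genes and treated mouse 1 close to the untreated mice. The complement gene C3 had 1.06, 1.45 and 4.24 CPM against 0.396, 0.799 and 0.806 CPM, and C4b 8.95, 9.24 and 21.5 CPM against 7.15, 8.18 and 9.86 CPM, highest in treated mouse 3. Cxcl10, a chemokine induced by interferon, had 0.291, 0.228 and 4.95 CPM against 0.271, 0.421 and 0.464 CPM, so that only treated mouse 3 stood out. Of the 29 interferon response genes tested, 2 were higher and 1 lower at an unadjusted p under 0.05 (background 5.06% and 5.27%). Their median was 0.09. In 18 genes treated mouse 3 was above every other mouse by more than 1 on the log2 scale, against 0 to 2 genes in each other mouse. The 20 microglia markers summed to 295.2, 281.6 and 360.6 CPM against 278.3 to 295.5 CPM, 5 of them higher and 0 lower at an unadjusted p under 0.05. Their median of 0.12 became 0.01 without treated mouse 3. Their part in the difference was not tested.

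Gfap, the filament protein of reactive astrocytes, had 215, 214 and 302.3 CPM against 197, 217 and 204 CPM (log2 fold change 0.24, adjusted p = 0.482 in edgeR), with treated mouse 3 again the highest. Of 19 markers of Bergmann glia and astrocytes, 6 were higher and 2 lower at an unadjusted p under 0.05 (median 0.06). The background was 5.06% higher and 5.27% lower. Of 20 oligodendrocyte markers, 1 was higher and 7 were lower (median −0.10). Ly6a, the receptor of the capsid on endothelium, had 23.5, 22.99 and 28.97 CPM against 27.2, 33.8 and 27.7 CPM, and its paralog Ly6c1 25.8, 27.5 and 26.9 CPM against 30.8, 33.0 and 32.5 CPM. The groups overlapped for Ly6a and not for Ly6c1 (log2 fold change −0.26, adjusted p = 0.203 in edgeR). The tight junction gene Cldn5 had 26.0, 27.6 and 33.1 CPM against 40.1, 40.9 and 33.3 CPM (−0.40, adjusted p = 0.213 in edgeR). Of 20 endothelial markers, 1 was higher and 4 lower at an unadjusted p under 0.05, with a median of −0.02. 

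The lists of neuronal markers had medians of −0.08 to 0.10. Of 28 Purkinje cell markers, 2 were higher and 0 lower at an unadjusted p under 0.05 (median 0.03, background 5.06% and 5.27%). Of 18 granule cell markers 0 were higher and 4 lower (median −0.08). Interneurons and Golgi cells had 4 of 17 tested markers higher and 0 lower (median 0.0018). Cerebellar nuclei and brainstem neurons had 1 of 8 higher and 1 lower (median 0.10). Eomes, a transcription factor of unipolar brush cells, had 30.4, 48.7 and 25.6 CPM against 20.1, 17.2 and 15.8 CPM, without overlap (log2 fold change 0.98, adjusted p = 0.0900 in edgeR). Of the 14 unipolar brush cell markers, 2 were higher and 0 lower at an unadjusted p under 0.05, with a median of 0.06. Th, the tyrosine hydroxylase, had 15.4, 11.7 and 12.3 CPM against 10.8, 7.47 and 12.4 CPM, with overlap. Atxn7, the mouse gene of ataxin-7, had 37.1, 39.9 and 39.8 CPM against 37.5, 41.7 and 36.5 CPM (log2 fold change 0.01, SE 0.066, with its sign turned in 4 of 17 alternatives). Of the 20 genes of the SAGA complex, to which ataxin-7 belongs, and of the 26 RNA interference genes tested, 0 and 2 had an unadjusted p under 0.05.

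Of the 23 immediate early genes tested, 9 were higher and 3 lower at an unadjusted p under 0.05 (median 0.24, background 5.06% and 5.27%). Without overlap 3 were higher, where 7.19% of all genes were. Klf4 had 10.8, 13.5 and 11.9 CPM against 7.82, 8.85 and 5.97 CPM, Fosb 1.69, 1.599 and 1.35 CPM against 0.917, 1.18 and 0.746 CPM. Apold1 and Nr4a3 were highest in treated mouse 2, at 11.6 and 24.9 CPM, and overlapped with the untreated mice. Of the p53 and DNA damage genes 0 were higher and 3 of 27 lower, and of the 29 stress response genes 2 were higher and 2 lower. Hbb-bt and Hba-a1, which encode haemoglobin, had log2 fold changes of −1.33 (edgeR adjusted p = 0.255) and −0.80 (edgeR adjusted p = 0.389). Both had at most 71 reads per mouse. The 11 tested genes of the blood list had a median of −0.67, with 0 higher and 2 lower at an unadjusted p under 0.05. The whole list summed to 123.5, 118.6 and 125.9 CPM in treated mice and 121.2, 123.1 and 125.3 CPM in untreated mice. Only 16 of the 67 replication-dependent histone genes had enough reads to be tested in these polyA-selected libraries. Of these 16, 4 were lower and 0 higher at an unadjusted p under 0.05 (median −0.29).

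**Figure D3:**
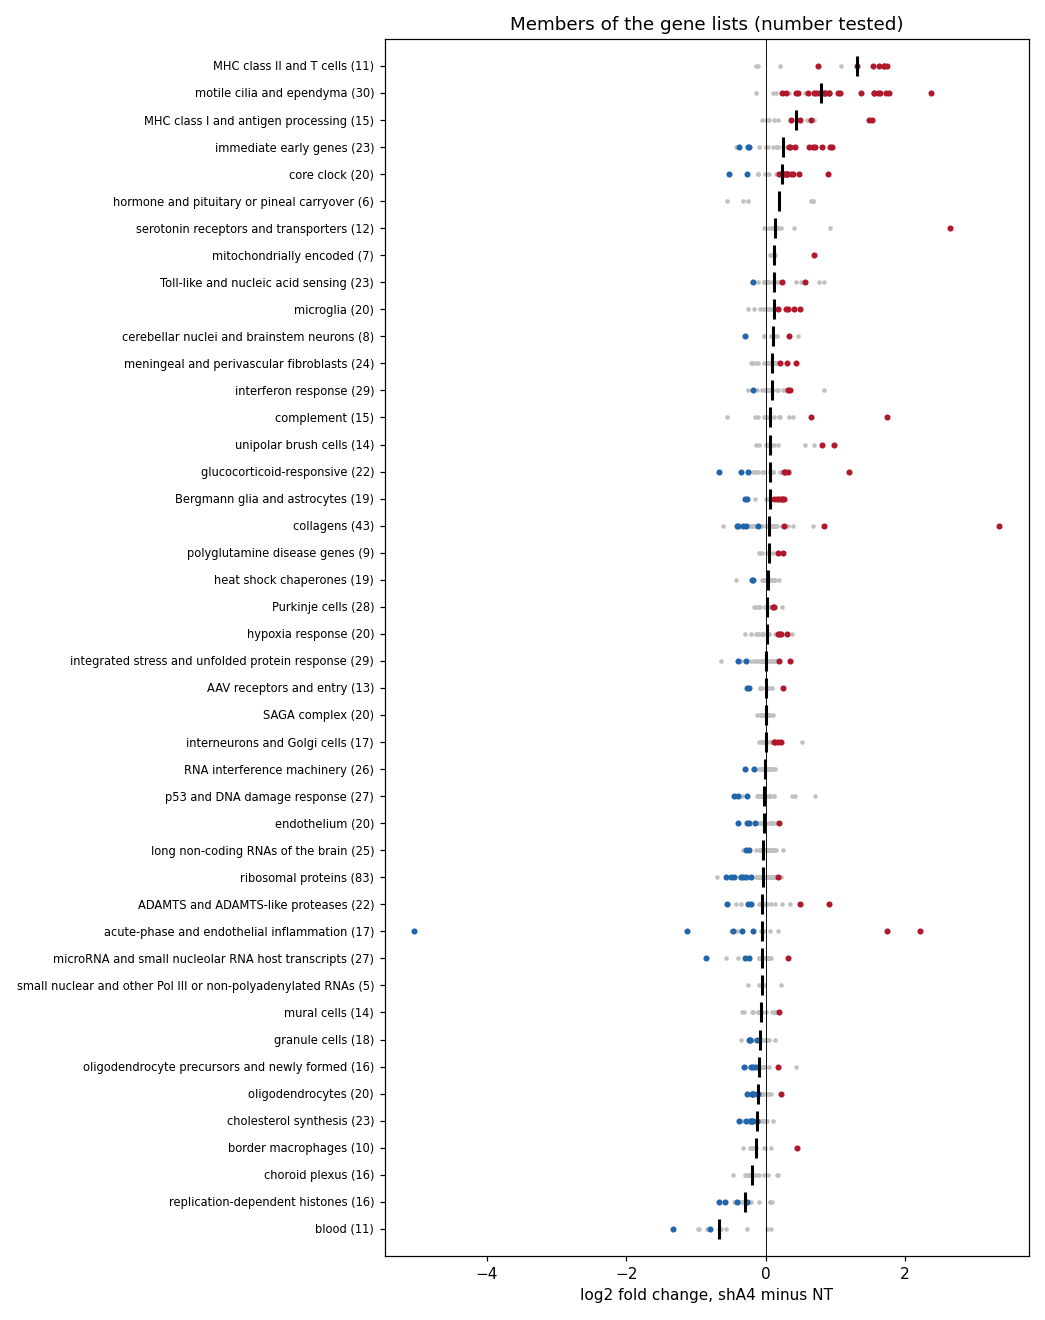
Log2 fold changes of AAV-shA4-treated against untreated WT mice (horizontal axis) for the members of 44 gene lists (rows, number tested in brackets), with an unadjusted p under 0.05 in red (higher) or blue (lower), other members in grey and list medians as black bars. The highest medians are those of MHC class II and T cells (1.31) and of motile cilia and ependyma (0.80), and the lowest is that of blood (−0.67).

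Some genes separated mice within a group rather than the groups. Six3 and Shox2, transcription factors of midbrain and forebrain, and the postsynaptic gene Nrgn were high in treated mice 1 and 3 and untreated mouse 2. Six3 had 1.82, 0.330 and 1.62 CPM in treated mice and 0, 2.69 and 0.161 CPM in untreated mice, where 0 reads were counted in untreated mouse 1. The pituitary hormone genes Gh and Prl were high in treated mice 1 and 2 and untreated mouse 3, and Gh had 30.5, 49.97 and 4.92 CPM against 3.59, 10.7 and 40.3 CPM. Capn11, a calpain, was high in mouse 1 of each group, with 7.18, 0.685 and 0.330 CPM against 6.65, 1.09 and 0.585 CPM. Zbtb16, a zinc finger factor, and Dlk1, a Notch ligand homologue, were highest in treated mouse 2. With the mean level of Six3, Shox2, Lhx9, Cbln2, Tcf7l2 and Nrgn as a covariate, a setting added after the data were seen, 9 genes were called, 8 of them shared with the 16.

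**Figure D4:**
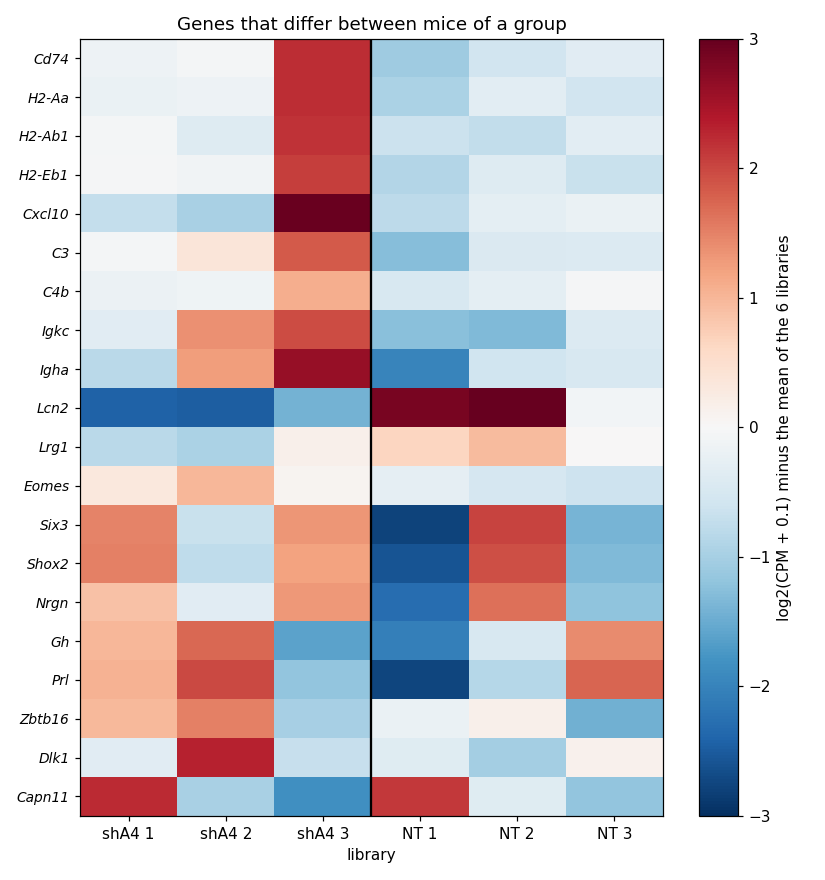
Level of 20 genes in the 6 early libraries (columns), as log2(CPM + 0.1) minus the mean of the 6 libraries, from blue (below the mean) to red (above it). MHC class II genes, Cxcl10 and C3 are highest in treated mouse 3, whereas Six3, Shox2, Nrgn, Gh and Prl are high in mice of both groups.

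In the late SCA7 libraries, which share no mouse with the early ones, 0 of 18061 genes were called between AAV-shA4 and AAV-shSCR in edgeR (0%), with 1552 genes (8.59%) at an unadjusted p under 0.05 and 11 called by DESeq2. Of the 13 genes called as higher in WT mice, 12 were tested there. All 12 had a log2 fold change above 0 in the late comparison, as had 51% of the 17373 genes tested in both, and 3 of them (Ccdc153, Dnah10 and Ccdc180) had an unadjusted p under 0.05 (background 4.13% higher). Ccdc153 had a late log2 fold change of 0.74 (standard error 0.30) against an early one of 1.77, and Dnah10 one of 0.64 against 1.56. Per2 had 0.07 late (standard error 0.13). Its level lay between 48.2 and 80.8 CPM in all 14 late mice, above each early untreated mouse. The 3 genes lower early were above 0 late, with 0.63 for Gm26673 (unadjusted p = 0.0398 in edgeR), 0.43 for Eps8l1 and 0.36 for Lcn2. The difference between the early and the late comparison was tested in edgeR on all 20 libraries, and 0 of 18705 genes passed an adjusted p under 0.05, 1322 (7.07%) an unadjusted one, and 4 an adjusted one in DESeq2. The comparisons differ in genotype, control and time at once, which cannot be told apart.

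**Figure D5:**
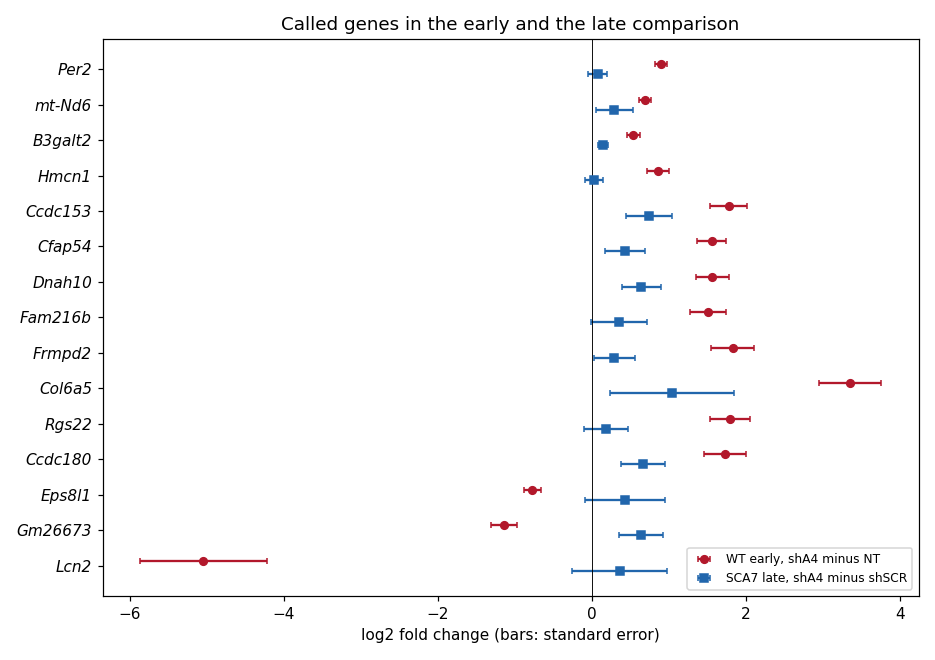
Log2 fold changes with their standard errors (bars) of the 15 called genes tested in both comparisons, in WT mice early (AAV-shA4 against untreated, red circles) and in SCA7 mice late (AAV-shA4 against AAV-shSCR, blue squares). All 15 late values lie above 0, and the 3 genes that were lower early lie on the other side of 0 late.

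Fold changes moved with base composition. Over 17584 genes, the Spearman correlation across genes of log2 fold change with GC content was −0.288, and genes are not independent replicates. In the third of genes with the highest GC content 2.99% were higher and 10.9% lower at an unadjusted p under 0.05, and in the third with the lowest 6.81% were higher and 1.40% lower. With an offset over GC content and length, 19 genes were called, 15 of them among the 16, without Lcn2. In that fit the medians of the lists of motile cilia (0.78), core clock (0.23) and cholesterol genes (−0.11) were close to those given above, whereas that of the 7 mitochondrial mRNAs went from 0.12 to 0.03, that of the ribosomal protein genes from −0.04 to −0.0065, and the collagens lower at an unadjusted p under 0.05 went from 5 to 2.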

How the data were processed

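RNA of 1 cerebellum per mouse was sequenced from polyA-selected, stranded libraries with single reads of 50 bases. The authors trimmed the reads with cutadapt 1.10 (reads under 40 bases dropped), removed ribosomal RNA with bowtie 2.2.8, mapped with STAR 2.5.3a to mm10 and counted genes with HTSeq 0.6.1p1, per their methods and processing notes, and deposited raw counts without normalization. Whether HTSeq used strand is not given in the sources used here. Counts were fitted with edgeR 4.0.16 in R 4.3.3 (TMM, filterByExpr at 10 reads per library and 15 in all, quasi-likelihood test without robust estimation), on the 6 early, the 14 late or all 20 libraries, and adjusted over all genes tested. Symbols, types and positions are those of GENCODE M21, which lacks 260 of the 55401 genes. The members and lists were chosen with earlier results of these data known. Named genes are all called ones, the 10 higher and 10 lower with the smallest unadjusted p among genes not called, at a fold above 1.3 and without overlap, likewise 6 and 6 that are not protein-coding, the 8 with the widest range within each early group, 12 fixed genes and up to 4 members of each list, with 1 gene not reported here. Alternatives were DESeq2 1.42.0 and its size factors, other filters, robust or pooled spread, equal depth, a GC and length offset, a replicate block, a covariate and leaving out each mouse. The fit was first tested on simulated data. Nothing in the sources pairs the mice, and p-values measure the spread between these mice. The labels number treated mice 1 to 3 as 1, 8 and 173 and the untreated mice as 179, 181 and 190. What these numbers stand for is not given, and any part they have in the differences was not tested.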

Additional observations from a re-analysis of the deposited data

Results flagged for a closer look

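In 5 of 48 groups of late libraries examined over the 16 called genes, 1 mouse lay far from the rest of its group by Dixon's test, where chance gives about 1 in 20. mt-Nd6 was at 60.5 CPM in SCA7 shSCR mouse 5, against 25.6 to 34.0 CPM in the other mice of that group. Eps8l1 was at 9.60 CPM in late untreated WT mouse 4, against 0.687 to 1.02 CPM. Fam216b was at 1.85 CPM in late untreated WT mouse 3, against 1.02 to 1.07 CPM. Hmcn1 was at 6.26 CPM in SCA7 shA4 mouse 1, against 4.54 to 5.00 CPM. Lcn2 was at 1.48 CPM in SCA7 shSCR mouse 3, against 0.146 to 0.370 CPM.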

How the results depend on the processing

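The 16 called genes of the early comparison became 58 with DESeq2 without shrinkage, 218 without a filter on low counts, 27 with robust spread, 44 with a replicate block, 45 with the block and a GC and length offset, and 9 with the covariate for 6 genes, and 1 to 38 with a mouse left out. The 1 called non-coding gene became 4, 28, 1, 3, 4 and 0 in the same order, and 0 to 2 with a mouse left out. Same-numbered mice of the 2 groups deviated with correlations of 0.127, −0.069 and 0.037. These 3 values cannot decide whether the numbers pair the mice. Between the SCA7 groups, 0 called genes became 11 with DESeq2 and 1 without a filter. For the difference between the early and late comparisons, 0 genes became 4 with DESeq2, 9 without a filter and 0 to 2 with a mouse left out. Atxn7 turned to −0.0256 with the covariate and ranged from −0.0221 to 0.0779 with a mouse left out. Per2 kept its call in all 17 alternatives, whereas the other called genes lost theirs in 3 to 8. Leaving out any 1 early mouse moved the count of called genes by over 1.5 times, to 7, 1 and 38 without treated mice 1 to 3 and to 9, 4 and 2 without untreated mice 1 to 3. Depth limited which genes could be tested, since 17601 of 55401 had enough reads.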

Other observations

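Members of the ADAMTS proteases of the extracellular matrix and of the ADAMTS-like proteins, which lack the protease domain, had differences of both signs. Adamtsl2 had 1.64, 1.65 and 2.34 CPM in treated mice and 1.13, 0.946 and 0.927 CPM in untreated mice, a log2 difference of 0.90, and Adamts20 one of 0.50, whereas that of Adamts18 was −0.55. None of them was called, and over the 22 tested genes the median was −0.05. Of the 83 ribosomal protein genes tested, 1 was higher and 7 were lower at an unadjusted p under 0.05 (background 5.06% and 5.27%). Their median was −0.04. Among chromosomes, the mitochondrial one had 6 of 16 tested genes at an unadjusted p under 0.05 (37.5%), all of them higher in treated mice, against 10.3% of all genes, 28.6% of the 7 genes of chromosome Y and 7.90% to 13.5% on the other chromosomes. Of the 6 mitochondrial genes that passed, 5 were tRNA or rRNA genes (9 tested) and 1 was an mRNA, mt-Nd6 (7 tested). The mitochondrial tRNA and rRNA genes summed to 46.8 to 50.1 CPM in treated mice and 31.8 to 47.1 CPM in untreated mice. The 7 mRNAs had a median GC content of 37.1%. Genes of lowest GC content were more often higher than lower (6.81% against 1.40% of 5862 genes). Any part of GC content in the mitochondrial count was not tested.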
